A study of Mus musculus with 6 samples.

Results

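Syk, Btk, Lyn, Fyn, Lat, Lat2, Lcp2, Plcg1 and Plcg2 encode kinases, adaptors and phospholipases that act directly beneath immunoreceptors. The 9 genes were taken by their symbols from a deposited table of 24672 mouse genes, and all 9 were found there. The symbols were picked from the pathway with the expression values of these same libraries known, so their levels and differences are a description. Where a fit over all genes called a member, the call is quoted as a label only, and nothing rests on it. RNA sequencing compared cultured C57BL/6 cells labelled female germline stem cells (FGSC, 3 libraries) with the same cells after induced differentiation (Dif-FGSC, 3 libraries), in a study of how retinoic acid starts meiosis and remodels chromatin. All cells were past passage 20 and were kept in MEMα with fetal bovine serum. FGSC grew on inactivated STO fibroblasts, and their medium held 10 ng/mL each of LIF, bFGF and GDNF and 20 ng/mL EGF. Dif-FGSC were placed on inactivated granulosa cells with 0.1 µmol/L retinoic acid and 10 ng/mL each of BMP4 and bFGF, so feeder layer, growth factors and retinoic acid changed together and cannot be told apart. Whether replicate libraries were grown as separate cultures is not stated in the labels, so p-values measure only a spread that may be technical. The table's columns are named con and dif, and con was read as FGSC, on which every direction here rests.

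When an immunoreceptor such as an Fc receptor, the T cell receptor or the B cell receptor is engaged, a Src family kinase (Lyn or Fyn here) phosphorylates tyrosine motifs on its signalling subunits. In mast cells Syk docks on these motifs of Fc receptors. It phosphorylates the membrane scaffolds LAT and LAT2 (also called NTAL or LAB) and the cytosolic scaffold SLP-76, the product of Lcp2. The scaffolds gather PLCγ1 and PLCγ2, which Btk and related Tec kinases activate, and these enzymes cleave a membrane lipid to release the messengers for calcium entry and protein kinase C. In mast cells this machinery leads to degranulation, and T cells, B cells and platelets use other combinations of these parts and their relatives.

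The labelled cell type was checked against its markers. None of 8 germ cell markers, Ddx4 and Dazl among them, reached 0.2 FPKM (mapped fragments scaled to transcript length in kilobases and to library size) in any library, so the groups are called FGSC-labelled and Dif-FGSC-labelled libraries. Within these low values Stra8 did not overlap, at 0.0249, 0 and 0 FPKM in FGSC-labelled libraries and 0.120, 0.0693 and 0.0686 in the others. Feeder markers were scarce too, with 7 of 8 fibroblast and 6 of 7 granulosa markers below 0.2 FPKM in every library. Among blood cell lists, all 7 B cell and all 4 NK cell markers stayed below 0.2 FPKM, as did 8 of 10 T cell markers, with Cd3e, Cd2, Cd4 and Cd8a at 0 in every library. Of 10 mast cell markers, 6 stayed below 0.2 FPKM in every library, Fcer1a, Ms4a2 and Hdc among them, and Tpsb2, Mrgprb1 and Mrgprb2 were at 0 throughout. Only 2 of the 10 averaged at least 1 FPKM over the 6 libraries, and these were abundant: Cpa3, a granule carboxypeptidase, and Kit, the stem cell factor receptor, stood at 288 ± 19.0 and 89.0 ± 5.20 FPKM (SD, n = 3) in FGSC-labelled libraries. Low values implied 17.2 to 27.2 M fragments per library, at which 3 fragments of a 2000 bp transcript give 0.0551 to 0.0872 FPKM. None of the 54 values of the members was 0.

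The decimals of the table bear on levels compared between genes. Values of Btk, Lat, Lat2, Lcp2, Plcg1 and Plcg2 had at most 6 significant digits. Those of Syk and Lyn became such numbers after multiplication by 2 and those of Fyn after multiplication by 3 (the divisor of a gene), as averages over 2 or 3 entries would. RefSeq lists 2 curated transcripts for Syk, 2 for Lyn and 3 for Fyn, but also 2 for Lat2, whose values have a divisor of 1. Over the genes examined that matched RefSeq, the number of curated transcripts equalled the divisor for 66.9% of genes with a divisor of 2, 80.6% of those with 3 and 85.2% of those with 1. If these values are averages over transcripts, the summed level of Syk and Lyn is 2 times and that of Fyn 3 times the listed FPKM. A constant divisor leaves the ratio between the groups as it is.

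Lcp2 and Lat were the most abundant members. Over all 6 libraries Lcp2 averaged 176 FPKM and Lat 142, above 96.4% and 95.3% of the 9162 genes with a mean of at least 1 FPKM. Btk (56.0 FPKM), Lat2 (49.9) and Plcg2 (35.9) followed, and each of these stood above the next in all 6 libraries without overlap. Plcg1 (14.1 FPKM) and Lyn (13.8) could not be ordered, since Plcg1 was the higher in 3 of 6 libraries. Syk (9.93 FPKM) and Fyn (3.49) were lowest as listed, Fyn being above 20.9% of tested genes. With the listed values multiplied by their divisors, Lyn would average 27.6, Syk 19.9 and Fyn 10.5 FPKM, which places Lyn and Syk above Plcg1 and leaves Fyn the lowest of the 9.

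**Figure D1:**
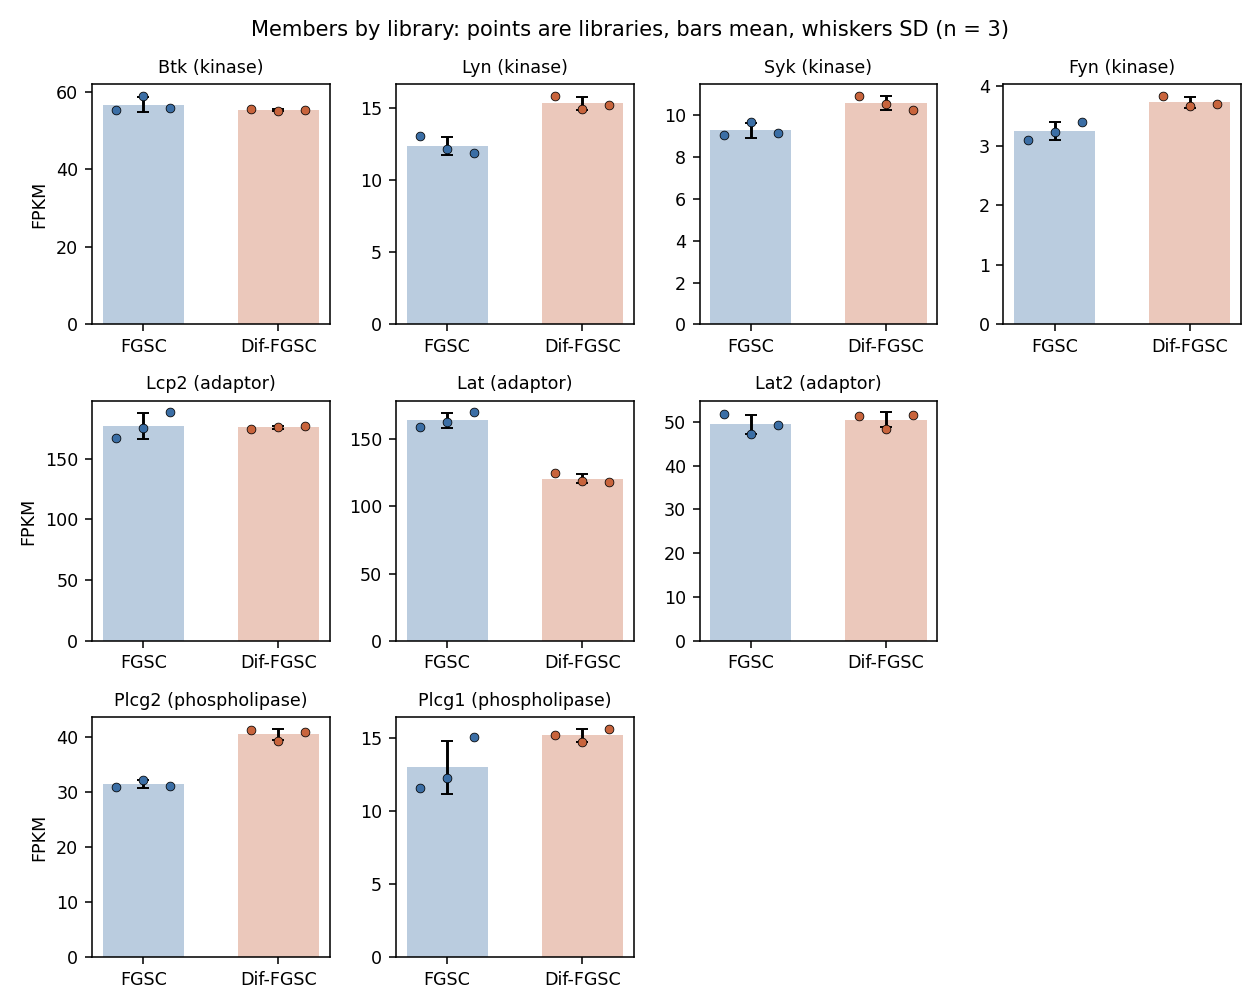
FPKM (vertical axes, each from 0) of the 9 members in the 3 FGSC-labelled libraries (blue points) and the 3 Dif-FGSC-labelled ones (orange points), with bars at the mean and whiskers of 1 SD. Lat is the member whose Dif-FGSC points (119 to 125 FPKM) all lie below its FGSC points (159 to 170), and the Dif-FGSC points of Plcg2, Lyn, Syk and Fyn all lie above.

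Of the 9 members, 5 passed a limma adjusted p under 0.05 in the fit over all 9162 tested genes, with 4 of them higher after differentiation and 1 lower. The same fit called 65.1% of all tested genes, 36.5% as higher and 28.6% as lower, so 55.6% of members called is not above the background. The balance of directions over all genes depended on scaling: 3343 were called higher and 2622 lower, while quantile normalization gave 2789 higher and 3185 lower, and scaling by median ratios gave 3030 and 2990. The groups did not overlap for the same number of members, 5 of 9, against 70.7% of all tested genes. Nothing is read from these counts, because the symbols were picked with this contrast known. The median log2 difference of the members, Dif-FGSC minus FGSC in log2(FPKM + 1), was 0.16, beside 0.03 over all tested genes. Member means in the Dif-FGSC group lay between 0.736 and 1.29 times those in the FGSC group.

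Lyn, the Src family kinase that phosphorylates Fc receptor subunits in mast cells and B cell receptor subunits in B cells, was listed at 13.0, 12.1 and 11.8 FPKM in FGSC-labelled libraries. In Dif-FGSC-labelled libraries it was listed at 15.8, 14.9 and 15.2 FPKM. All 3 of the latter lay above the former, with means of 12.3 ± 0.615 and 15.3 ± 0.473 FPKM (SD, n = 3) and a log2 difference of 0.29 ± 0.044 (SE). Fyn, the second Src family kinase of the set and known to promote mast cell degranulation, was listed at 3.10, 3.24 and 3.41 FPKM in FGSC-labelled libraries. Its values in Dif-FGSC-labelled libraries were 3.84, 3.67 and 3.70 FPKM. The groups did not overlap, but the gap was narrow, and the log2 difference was 0.16 ± 0.046 (SE). Fyn was no longer called without FGSC replicate 1 (log2 difference 0.13), without Dif-FGSC replicate 1 (0.14) or after quantile normalization (0.06). Its listed level was a fraction of that of Lyn, which stood at 3.81 ± 0.370 times Fyn in FGSC-labelled libraries and 4.09 ± 0.0295 times in the Dif-FGSC-labelled ones, or 2.54 and 2.73 times with the divisors applied.

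Syk, the kinase that binds phosphorylated receptor motifs, had FPKM values of 9.04, 9.70 and 9.13 before differentiation (FGSC) and of 10.9, 10.6 and 10.2 after it (Dif-FGSC). The groups did not overlap, at 1.14 times the FGSC mean and a log2 difference of 0.17 ± 0.042 (SE). After quantile normalization the difference was 0.09 and Syk was no longer called. Btk, the Tec family kinase whose loss causes X-linked immunodeficiency, had FPKM values of 55.4, 58.9 and 55.8 before differentiation (FGSC) and of 55.5, 55.0 and 55.4 after it (Dif-FGSC). The groups overlapped, and the log2 difference of -0.04 ± 0.032 (SE) spans -0.10 to 0.03 at 2 SE. Btk therefore stood at 6.11 ± 0.0261 times Syk in FGSC-labelled libraries and at 5.23 ± 0.165 times in the others, without overlap, or 3.05 and 2.62 times with the divisor of Syk applied.

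The other kinases of these families spanned a graded range of levels, all below those of Syk and Btk. Zap70, the relative of Syk used by T and NK cells, did not exceed 0.0675 FPKM, an estimated 2.99 fragments. Of the other Tec kinases described, Tec averaged 4.11 ± 0.0405 FPKM in FGSC-labelled libraries and Txk 1.15 ± 0.132, both far below Btk, and Bmx was listed at 0. Of the other Src family kinases described, Lck did not exceed 0.406 FPKM and Src 0.118, while Fgr was at or below 0.0305 and Blk, Yes1 and Frk were listed at 0 in all 6 libraries. An entry of 0 can be a failed estimate.

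**Figure D2:**
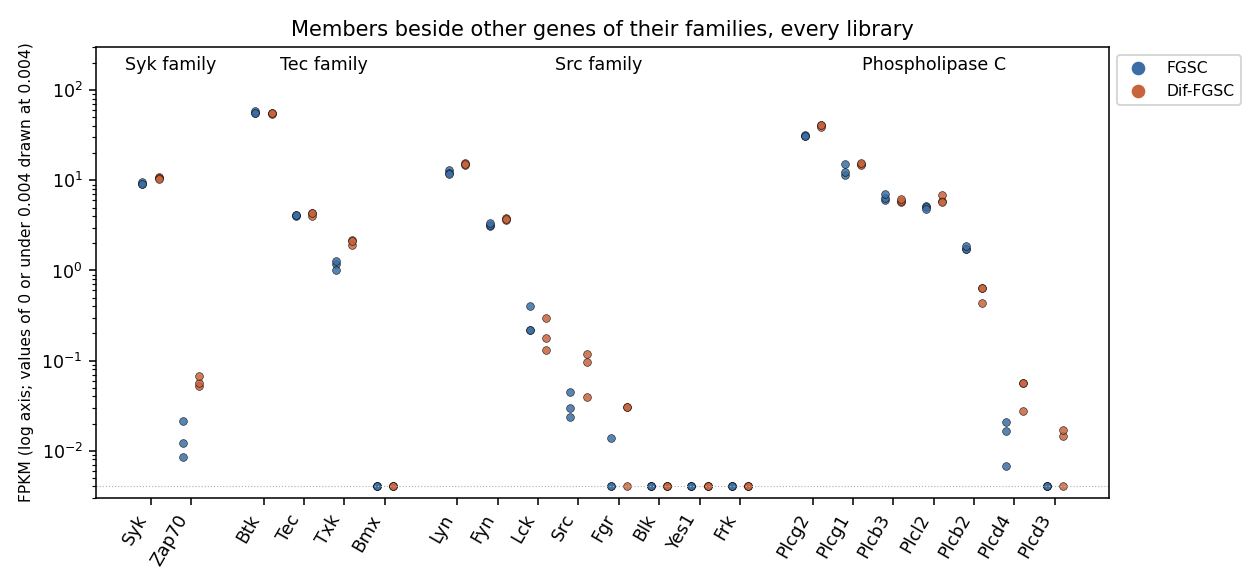
FPKM on a log axis of members and other genes of their families in each of 6 libraries, blue for FGSC and orange for Dif-FGSC, with values of 0 drawn at the dotted line. Syk, Btk, Lyn, Plcg2 and Plcg1 stand above 9 FPKM in every library, while Zap70, Bmx, Src, Fgr, Blk, Yes1 and Frk stay below 0.12.

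Lat, the membrane scaffold of T cells, mast cells and platelets, was the 1 member whose Dif-FGSC values all lay below its FGSC values. It had FPKM values of 159, 163 and 170 before differentiation (FGSC) and of 125, 119 and 119 after it (Dif-FGSC). The lowest FGSC value lay well above the highest Dif-FGSC value, and the mean in Dif-FGSC-labelled libraries was 0.736 times that in the others (log2 difference -0.44 ± 0.035 SE). Lat2, a scaffold related to Lat in function and expressed in B cells, myeloid cells and mast cells, was listed at 51.7, 47.3 and 49.3 FPKM and at 51.3, 48.4 and 51.6. These groups overlapped (log2 difference 0.03 ± 0.042 SE, -0.05 to 0.11 at 2 SE). Lat thus stood at 3.08, 3.44 and 3.45 times Lat2 in FGSC-labelled libraries and at 2.43, 2.45 and 2.30 times in the Dif-FGSC-labelled ones. The ratio did not overlap between the groups, and Lat remained the more abundant scaffold in every library.

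Lcp2, whose product SLP-76 bridges the Lat complex to PLCγ and Vav, had FPKM values of 167, 175 and 188 before differentiation (FGSC) and of 174, 176 and 177 after it (Dif-FGSC). The FGSC libraries spanned the whole range of the others, and the log2 difference was -0.01 ± 0.042 (SE; -0.09 to 0.08 at 2 SE). Lcp2 and Lat were close to equal in FGSC-labelled libraries, where Lcp2 was 1.08 ± 0.0277 times Lat. In Dif-FGSC-labelled libraries it was 1.46 ± 0.0527 times Lat.

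**Figure D3:**
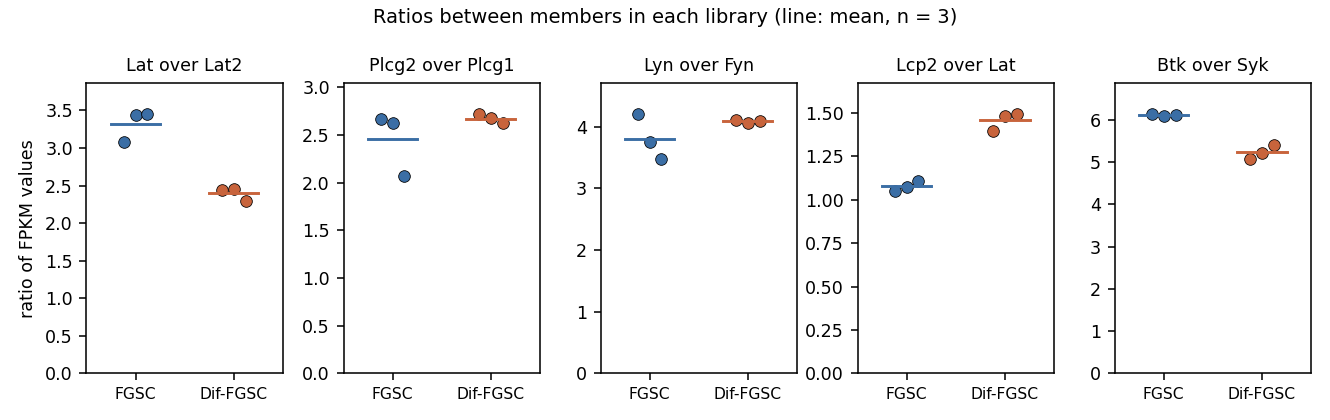
Ratio of FPKM values (vertical axes from 0) between pairs of members in each library, blue for FGSC and orange for Dif-FGSC, with a line at the mean of 3. Lat over Lat2, Lcp2 over Lat and Btk over Syk do not overlap between the groups, while Plcg2 over Plcg1 and Lyn over Fyn do.

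Plcg2, the PLCγ isoform typical of B cells, mast cells and platelets, had FPKM values of 30.8, 32.2 and 31.1 before differentiation (FGSC) and of 41.2, 39.3 and 40.9 after it (Dif-FGSC). Its mean was 1.29 times that before differentiation, the largest upward difference of any member, with a log2 difference of 0.36 ± 0.033 (SE) and no overlap. Plcg1, the isoform that T cells rely on and that most tissues express, was listed at 11.6, 12.3 and 15.0 FPKM and at 15.2, 14.7 and 15.6. Here FGSC replicate 3 lay among the Dif-FGSC libraries and above both other FGSC-labelled libraries. Plcg1 was not called (log2 difference 0.22 ± 0.085 SE, 0.05 to 0.39 at 2 SE), and without FGSC replicate 3 it was, at 0.32. Plcg2 stood at 2.07 to 2.66 times Plcg1 in FGSC-labelled libraries and at 2.62 to 2.72 times in the Dif-FGSC-labelled ones, where the lowest FGSC ratio is that of replicate 3.

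**Figure D4:**
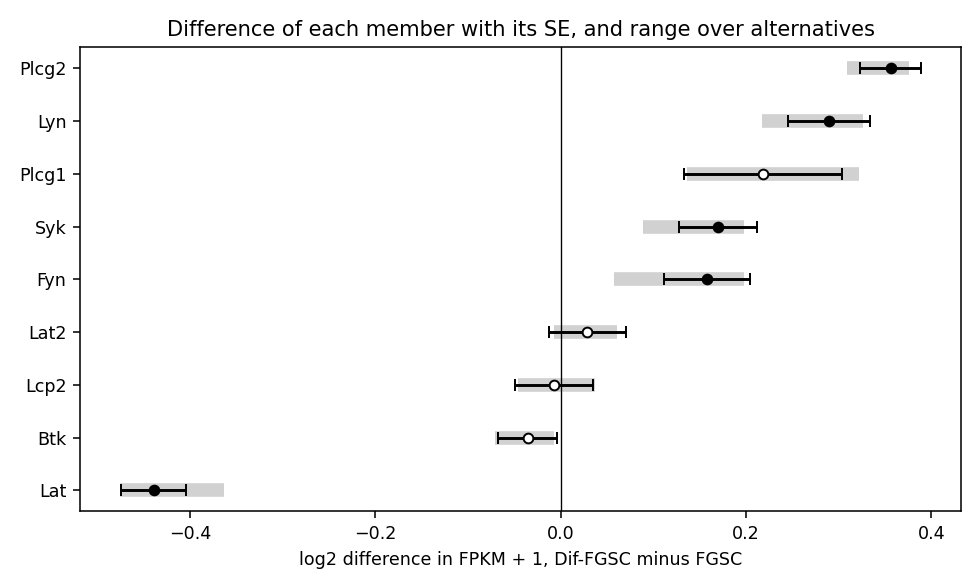
Log2 difference in FPKM + 1, Dif-FGSC minus FGSC, of each member with its SE, filled where the fit over all genes called it. Grey bars give the range over the alternative analyses, in which Lat stays between -0.48 and -0.36 and Plcg2 between 0.31 and 0.38.

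The stretches upstream of the start sites of Lcp2, Lat and Plcg2 are shown because these are the most abundant member, the 1 that was lower without overlap and the 1 with the largest upward difference. Each is the 250 bases before a start site, 5′ to 3′ on the strand of the gene, from RefSeq on build GRCm38.p6, which is not the build mm9 named for the deposited values. Capitals mark GATAA, the core motif of GATA factors, on either strand.
Lcp2 (chr11:34046678-34046927, plus strand): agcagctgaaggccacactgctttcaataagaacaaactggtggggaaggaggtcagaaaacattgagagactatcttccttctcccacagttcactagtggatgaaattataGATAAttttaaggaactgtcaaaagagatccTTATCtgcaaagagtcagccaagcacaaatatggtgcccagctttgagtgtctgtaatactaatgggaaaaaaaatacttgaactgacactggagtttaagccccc
Lat (chr7:126369569-126369818, minus strand): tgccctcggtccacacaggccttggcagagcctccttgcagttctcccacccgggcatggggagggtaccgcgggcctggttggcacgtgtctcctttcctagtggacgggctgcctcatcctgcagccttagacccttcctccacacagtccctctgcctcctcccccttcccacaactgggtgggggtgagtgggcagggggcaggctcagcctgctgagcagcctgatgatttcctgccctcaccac
Plcg2 (chr8:117498025-117498274, plus strand): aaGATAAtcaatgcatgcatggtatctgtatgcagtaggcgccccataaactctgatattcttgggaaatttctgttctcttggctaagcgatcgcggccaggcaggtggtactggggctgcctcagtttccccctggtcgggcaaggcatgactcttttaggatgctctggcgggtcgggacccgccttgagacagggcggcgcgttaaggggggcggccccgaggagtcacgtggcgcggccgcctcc
GATAA occurred 2 times upstream of Lcp2, 1 time upstream of Plcg2 and not in the window of Lat. RefSeq gave 8 such windows for 7 of the members, Lat2 and Lyn being without an entry used here, and GATAA was in 3 of the 8, those of Lcp2 and Plcg2 and 1 of the windows of Syk, against 22.6% of 32851 windows of all genes. The ETS motif CGGAAG and the AP-1 motif TGANTCA, searched on both strands, were in none of the 8, against 13.6% and 6.75% of all windows. No matches overlapped, and a match is only a match of letters.

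The rest of the pathway was described with 6 lists of 132 genes in all, of which 82 were tested. After differentiation 45 of these were higher and 16 were lower, so 74.4% were called. Over all tested genes the share was 65.1%, with 36.5% higher and 28.6% lower. The median log2 difference of the 82 was 0.18, and 0.16 over the 81 genes above 0 in every library. Cd247 is counted as higher and Plcb2 as lower, although each passed the filter on low values only through the group where it was high. The lists were drawn up knowing earlier results of these libraries, so these counts and the adjusted p-values of the genes named below are a description.

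The receptors above the members were represented by a few subunits. Of 17 listed receptor subunits, 7 passed the filter on low values, and 3 of them were called higher and 3 lower. Cd247 is counted among the 3 higher, although it passed the filter only through its Dif-FGSC values, so nothing rests on its call. Fcer1g, the shared signalling subunit of Fc receptors, rose from 62.2 ± 4.66 to 74.7 ± 2.04 FPKM (SD, n = 3; limma adjusted p = 0.00339). Subunits particular to the IgE receptor and to the antigen receptors were at 0 or low. Fcer1a did not exceed 0.0431 FPKM, an estimated 0.964 fragments. Ms4a2 did not exceed 0.174 FPKM, but this was an estimated 11.35 fragments. Cd3e and Cd79b were listed at 0, and Cd79a did not exceed 0.114 FPKM, an estimated 3.269 fragments. Of the IgG receptors, Fcgr3 fell from 26.3 ± 3.24 to 13.5 ± 0.397 FPKM (limma adjusted p = 4.09e-05). The inhibitory Fcgr2b fell from 28.8 ± 1.37 to 20.7 ± 0.569 FPKM (limma adjusted p = 5.75e-05). Fcgr1 was also called lower, at 5.19 ± 0.729 and 4.19 ± 0.148 FPKM. Fcgr4 was not tested and overlapped between the groups, with the higher mean in Dif-FGSC-labelled libraries (0.210 ± 0.142 and 0.519 ± 0.215 FPKM). Cd247, the zeta chain of the T cell receptor, was listed at 0 in the 3 FGSC-labelled libraries and at 2.28, 2.39 and 1.97 FPKM in the others, and no fold is given because a 0 can be a failed estimate. The median log2 difference of the list was -0.25, and -0.33 over the 6 genes above 0 in every library.

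Among 12 other kinases, 3 passed the filter, and 2 of these were called higher and none lower (Csk and Txk), with a median log2 difference of 0.32. Csk, the kinase that holds Src family kinases inactive, rose from 60.7 ± 1.42 to 76.1 ± 1.83 FPKM (limma adjusted p = 7.81e-05). Its listed level was above that of Lyn and Fyn in both groups. Txk rose from 1.15 ± 0.132 to 2.08 ± 0.151 FPKM (limma adjusted p = 0.000331). Tec stood at 4.11 ± 0.0405 and 4.23 ± 0.167 FPKM and was not called.

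Of 28 other adaptors and exchange factors 18 were tested, 11 higher and 3 lower, with a median log2 difference of 0.17. Clnk, a relative of SLP-76 found in cytokine-stimulated blood cells and mast cells, was the most abundant and fell slightly, from 93.2 ± 2.36 to 86.8 ± 1.20 FPKM (limma adjusted p = 0.0172). That call was lost without FGSC replicate 2 (0.0575), without Dif-FGSC replicate 3 (0.0582) and after quantile normalization (limma adjusted p = 0.0708). Blnk, the SLP-76 relative of B cells, did not exceed 0.0844 FPKM. Hcls1, a cytoskeletal substrate of Syk and Lyn, rose from 78.8 ± 2.77 to 86.4 ± 2.40 FPKM (limma adjusted p = 0.0126), a call lost without Dif-FGSC replicate 2 (limma adjusted p = 0.051). The largest differences among the called adaptors were those of Crkl, an SH2 and SH3 adaptor, from 8.93 ± 0.442 to 13.3 ± 0.276 FPKM (limma adjusted p = 3.48e-05), Bcar1, a docking protein, from 2.01 ± 0.206 to 3.04 ± 0.195, and Vav2, an exchange factor for small GTPases, from 2.80 ± 0.0644 to 3.94 ± 0.149.

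Of 25 listed inhibitors 20 were tested, 11 higher and 4 lower (9 and 5 after quantile normalization), with a median log2 difference of 0.15. Their called share was 75.0%, beside 74.4% over the 6 lists, which include them, and 65.1% of all tested genes. Cbl, a ubiquitin ligase that marks activated receptors and Syk, rose from 5.88 ± 0.457 to 12.7 ± 0.325 FPKM (2.16 times, limma adjusted p = 4.94e-06). Sla2, an adaptor that brings Cbl to receptors, rose from 6.47 ± 0.444 to 10.7 ± 0.505 FPKM (limma adjusted p = 3.81e-05). Inpp5d, the lipid phosphatase SHIP1, rose from 11.2 ± 0.331 to 17.6 ± 0.146 FPKM (limma adjusted p = 5.67e-06). Dgkz, which removes diacylglycerol, the messenger made by PLCγ, rose from 27.5 ± 0.0880 to 31.7 ± 0.774 FPKM (limma adjusted p = 0.00079). Ptpn6, the tyrosine phosphatase SHP-1, went the other way, from 63.4 ± 2.75 to 54.5 ± 1.01 FPKM (limma adjusted p = 0.00147).

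Plcg1 and Plcg2 were the most abundant of the phospholipase C genes examined. Of 13 others, 3 were tested. Plcb2, an isoform driven by G protein-coupled receptors, was listed at 1.78 ± 0.0770 and 0.574 ± 0.117 FPKM and was called lower. It passed the filter at a mean of 1 FPKM only through its FGSC values, so no p is given and nothing rests on its call. Plcl2, a relative without catalytic activity, rose from 5.03 ± 0.204 to 6.17 ± 0.641 FPKM (limma adjusted p = 0.0137), a call lost after quantile normalization (limma adjusted p = 0.0909). Plcb3 stood at 6.49 ± 0.445 and 6.01 ± 0.250 FPKM and was not called, although quantile normalization called it lower (limma adjusted p = 0.0141).

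Downstream of the scaffolds 31 of 37 genes were tested, 17 higher and 5 lower, with a median log2 difference of 0.22. The largest differences were falls. Rasgrp2, an exchange factor for Rap GTPases, fell from 6.53 ± 0.519 to 1.39 ± 0.174 FPKM (limma adjusted p = 2.14e-06), and Prkcq, protein kinase C theta, from 20.5 ± 0.813 to 8.72 ± 0.533 (limma adjusted p = 2.14e-06). Stim2, a calcium sensor of the endoplasmic reticulum, rose from 13.7 ± 0.232 to 23.5 ± 0.643 FPKM (limma adjusted p = 2.44e-06). Akt1, a kinase downstream of phosphoinositide 3-kinase, rose from 47.9 ± 1.11 to 56.8 ± 1.01 FPKM (limma adjusted p = 0.000288). Ppp3r1, the regulatory subunit of calcineurin, stood at 58.8 ± 0.449 and 61.0 ± 1.51 FPKM and was not called.

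**Figure D5:**
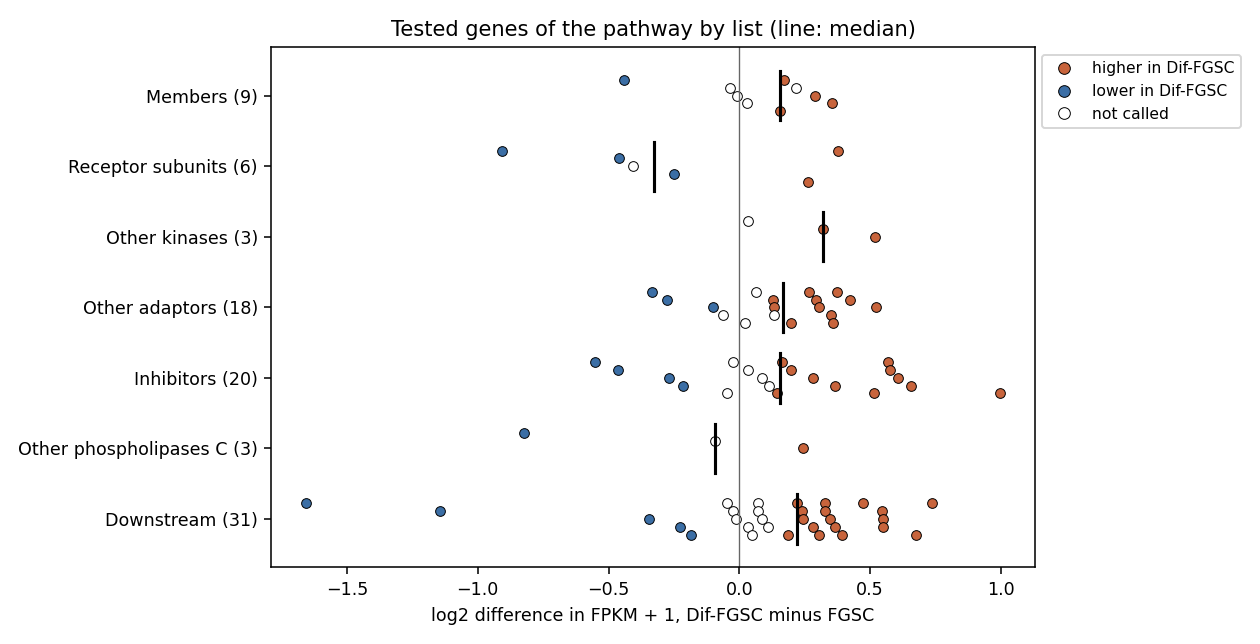
Log2 difference in FPKM + 1, Dif-FGSC minus FGSC, of tested genes by list, orange where called higher, blue where called lower and white where not called, with a line at each median. Cd247 is left out because it was listed at 0 in FGSC-labelled libraries, and the falls of Rasgrp2 and Prkcq reach furthest to the left.

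Summed marker levels of blood cell lineages differed between the groups too. The summed level of the 10 mast cell markers was 353 to 392 FPKM in FGSC-labelled libraries and 410 to 428 in the Dif-FGSC-labelled ones, nearly all of it Cpa3 and Kit. Kit rose from 89.0 ± 5.20 to 114 ± 0.931 FPKM (limma adjusted p = 0.000195), while Cpa3, at 288 ± 19.0 and 301 ± 10.5 FPKM, overlapped between the groups and was not called. The low values of the other mast cell markers went both ways, Cma1 being higher after differentiation (0.0288 ± 0.0267 and 1.24 ± 0.391 FPKM) and Ms4a2 lower (0.133 ± 0.0462 and 0.0596 ± 0.0152), each without overlap. For 5 platelet and megakaryocyte markers, nearly all of it the integrin gene Itga2b, the sum was 53.7 to 59.3 and 47.5 to 50.4 FPKM, with Gp1bb and Gp6 at 0 throughout. For 8 macrophage and granulocyte markers, with Elane at 0, the sum was 24.2 to 24.9 FPKM in FGSC-labelled libraries, mainly Adgre1. In Dif-FGSC-labelled libraries it was 11.3 to 11.4 FPKM, and Cd68 exceeded Adgre1 in each. Adgre1 carried the fall of this sum, at 20.3 ± 0.324 and 4.28 ± 0.173 FPKM. Cd68 went up (3.19 ± 0.271 and 6.19 ± 0.118 FPKM, limma adjusted p = 1.67e-05). Itgam and Csf1r, below 0.2 FPKM throughout, were also higher without overlap. Lyz2 went the other way, lower without overlap at 1.08 ± 0.318 and 0.672 ± 0.0436 FPKM. For 3 basophil markers the sum was 1.23 to 1.54 FPKM in FGSC-labelled libraries, in each of which Cd200r3 exceeded Mcpt8. In Dif-FGSC-labelled libraries that sum was 8.22 to 9.87 FPKM, mainly Mcpt8. The 10 T cell markers summed to 0.263 to 0.483 FPKM in FGSC-labelled libraries, mostly Lck, with Cd247 at 0. In Dif-FGSC-labelled libraries they summed to 2.30 to 2.89 FPKM, mostly Cd247. The part of these in the differences of the members was not tested, and in bulk RNA fewer cells of a type cannot be told apart from less RNA per cell.

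The tested genes whose log2(FPKM + 1) followed the members with the 3 largest differences most closely over the 6 libraries, predicted genes left out, were found by Pearson correlation. With only 2 groups, a gene that separates them clearly in the same direction as the member tends to score high. Kctd15, Mrpl55 and Egfl7 were closest to Lat (r = 0.99956, 0.99902 and 0.99858), and 104 genes exceeded 0.99. Armc6, Zdhhc16 and Tent5c were closest to Plcg2 (r = 0.99939, 0.99935 and 0.99847), with 140 genes above 0.99. Arf3, Ide and Faf1 were closest to Lyn (r = 0.99769, 0.99691 and 0.99616), with 37 above 0.99. Kctd15, the nearest to Lat, was listed at 2.55 ± 0.0915 and 1.65 ± 0.0655 FPKM, and Armc6, the nearest to Plcg2, at 17.1 ± 0.653 and 23.7 ± 0.807.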

How the data were processed

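The authors deposited 1 table of FPKM values per gene symbol and library. HISAT2 4.8.2, Cufflinks 2.2.1 and the build mm9 appear in the submitters' processing notes without the step each performed, and annotation and strand setting are not stated, which leaves overlapping genes uncertain. limma 3.58.1 in R 4.3.3 (lmFit, eBayes with trend) was run on log2(FPKM + 1), a scale that compresses differences of low genes, for 9162 genes averaging at least 1 FPKM. Calls used Benjamini-Hochberg adjusted p under 0.05 over all of these. The script was tested on simulated data. Depth was read from steps between low values of genes with 1 annotated transcript: 73.2% to 77.1% of them lay within 0.1 of a whole fragment, where chance gives 20%, but the step was set on the same values. A value's divisor was the smallest whole number turning it into one of 6 significant digits, 1 more decimal being allowed. Of 8717 genes examined, 61.2% had a divisor of 1 and 25.1% one of 2.

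Members and lists were chosen with earlier results of these data known. Named were all members, in each list the 3 called genes with the largest log2 difference and the 2 with the highest mean, and the 3 genes most like each of 3 members. Fcgr1, Fcgr4 and the family members and receptor subunits at or near 0 were named after their values were seen. Alternatives changed the pseudocount, filter, scaling, variance prior, pairing and libraries used. Multiplying values by their divisors was added after seeing the data. Some genes of these families and lists are not reported here.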

Additional observations from a re-analysis of the deposited data

How the results depend on the processing

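Calls of members are quoted as labels only, since the genes were chosen with this contrast known. Over 14 alternatives, Lat stayed lower and Plcg2 and Lyn higher, with the label kept. Quantile normalization reduced the called members from 5 to 3, of which 2 were higher, with Syk and Fyn lost. Leaving out 1 library gave 4 to 6 called members, 56 to 60 called pathway genes and 5295 to 5963 called genes. Plcg1 was called without FGSC replicate 3, with a mean FPKM of at least 5, with values multiplied by their divisors and with the replicate block. Fyn had no value under the filter at a mean of 5 FPKM. The replicate block, built from the column numbers, gave 6 called members, 59 called pathway genes and 5798 called genes. Same-numbered columns deviated together with r = 0.131, 0.0123 and 0.173, so the numbers were not taken as pairs. Of the pathway genes named, Tec changed direction after quantile normalization (-0.056). The cause was not tested. Values that rest on under 3 fragments cannot be told from 0 at this depth.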
